A study of Mus musculus with 28 samples.

Results

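10 genes of killer lymphocytes were followed here across sorted gut T cells: the granule proteases Gzma, Gzmb, Gzmk and Ctsw, the pore former Prf1, the granule membrane protein Nkg7, the death ligand Fasl, and the natural killer (NK) receptor genes Klrd1, Klrk1 and Klrc1. They were chosen by symbol, and all 10 were found among the 25124 genes measured. All 10 were among the 12182 genes tested, those with at least 1 TPM (a read count scaled for gene length and library size) in at least 6 libraries. The cells were CD4+ T cells from the small intestinal lamina propria (SILP) of T-bet-ZsGreen mice, a reporter strain in which ZsGreen marks expression of the transcription factor T-bet. The sort gate took live CD45+ CD90.2+ TCRb+ CD4+ cells, so reporter-positive and reporter-negative cells were both included, and all 4 groups share the reporter genotype. Mice were housed specific-pathogen-free (SPF) or germ-free (GF), and received an isotype control antibody or an antibody to CD3 (aCD3), which carries the signal of the T cell receptor. The 28 bulk RNA-seq libraries were 6 SPF isotype (3 female, 3 male), 6 SPF aCD3 (3 female, 3 male), 10 GF isotype (5 female, 5 male) and 6 GF aCD3 (1 female, 5 male). Libraries are named by the sex letter and replicate number of their labels, as in F1 or M3. Age, antibody dose and time after injection are not given in the sources used here, nor whether a library came from 1 mouse.

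Cytotoxic lymphocytes kill by releasing granules onto a target cell. Perforin opens the target's membrane, and granzymes, which are serine proteases, enter and cleave proteins that trigger cell death. A separate route runs through Fas ligand, which engages the death receptor Fas. NK receptors set the threshold for killing: NKG2D, made from Klrk1, is activating and signals through the adaptor made from Hcst, while NKG2A, made from Klrc1, pairs with CD94, made from Klrd1, and is inhibitory. These genes are typical of NK cells and CD8+ T cells, but CD4+ T cells of the gut can carry part of the set, and granzymes A and B are among the genes reported in interleukin-10-producing type 1 regulatory (Tr1) cells.

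The promoters of 5 members are shown because these genes moved in opposite directions under aCD3: Gzma, Gzmb and Nkg7 rose and Klrk1 and Fasl fell. Each is the RefSeq window (GRCm38.p6, the assembly of the authors' mm10 build) of 250 bases before and 50 bases from the gene's start, read 5′ to 3′ on the gene's strand. Gzma lies on chromosome 13, minus strand, chr13:113100932-113101231. Gzmb lies on the minus strand at chr14:56262285-56262584, Nkg7 on the plus strand at chr7:43436888-43437187, Klrk1 on the minus strand at chr6:129623815-129624114 and Fasl on the minus strand at chr1:161788446-161788745. Capitals mark the letters of any of 5 motifs searched on both strands: TGTGGT (RUNX), TCACACC (T-box), TGANTCA (AP-1), TGGAAA (NFAT) and TTCNNNGAA (STAT).
Gzma: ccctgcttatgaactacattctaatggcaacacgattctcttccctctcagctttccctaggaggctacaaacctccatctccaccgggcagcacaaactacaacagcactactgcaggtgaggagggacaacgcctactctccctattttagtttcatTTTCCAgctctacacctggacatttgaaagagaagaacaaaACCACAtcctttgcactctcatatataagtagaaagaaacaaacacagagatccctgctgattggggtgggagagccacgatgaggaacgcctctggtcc
Gzmb: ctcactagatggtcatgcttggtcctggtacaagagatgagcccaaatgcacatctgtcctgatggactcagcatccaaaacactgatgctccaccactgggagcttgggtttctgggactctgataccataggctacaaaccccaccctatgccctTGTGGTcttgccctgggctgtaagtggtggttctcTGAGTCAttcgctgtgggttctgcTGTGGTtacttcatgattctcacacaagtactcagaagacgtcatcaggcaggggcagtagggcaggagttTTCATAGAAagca
Nkg7: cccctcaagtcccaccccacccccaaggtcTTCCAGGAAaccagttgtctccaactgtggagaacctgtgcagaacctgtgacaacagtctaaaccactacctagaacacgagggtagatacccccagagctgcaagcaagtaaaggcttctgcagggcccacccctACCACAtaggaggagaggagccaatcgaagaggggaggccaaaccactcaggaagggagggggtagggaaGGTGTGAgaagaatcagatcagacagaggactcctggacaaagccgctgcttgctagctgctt
Klrk1: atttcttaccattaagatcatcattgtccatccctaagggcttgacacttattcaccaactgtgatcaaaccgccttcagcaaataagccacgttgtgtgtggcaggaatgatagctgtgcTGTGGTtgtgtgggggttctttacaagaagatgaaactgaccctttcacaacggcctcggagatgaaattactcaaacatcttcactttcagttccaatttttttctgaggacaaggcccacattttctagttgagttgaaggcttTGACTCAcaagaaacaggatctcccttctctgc
Fasl: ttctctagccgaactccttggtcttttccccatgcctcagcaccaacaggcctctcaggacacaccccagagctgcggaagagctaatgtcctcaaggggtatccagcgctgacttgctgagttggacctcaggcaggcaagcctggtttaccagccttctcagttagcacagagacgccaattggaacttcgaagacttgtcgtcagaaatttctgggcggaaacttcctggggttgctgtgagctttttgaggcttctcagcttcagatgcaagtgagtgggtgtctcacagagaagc
No bases were shared between motifs in these windows. The RUNX letters stood in 6 of the 8 members with a RefSeq window: once each in Gzma, Nkg7, Prf1, Klrk1 and Klrc1 and at 2 places in Gzmb, whose matches began 93 and 34 bases before the start. Of 32817 RefSeq windows of the same length, 16.8% held the RUNX letters. The T-box letters were found in Nkg7, 13 bases before the start, and in Gzmk, 75 bases before it, against 3.98% of all windows. The AP-1 letters were found in Gzmb, 58 bases before the start, and in Klrk1, 18 bases from the start (7.81% of all windows). NFAT letters stood in Gzma and Klrc1 (21.4% of all windows) and STAT letters in Gzmb and Nkg7 (8.29% of all windows). RUNX letters were thus present in genes that rose and in a gene that fell, and the Fasl window held none of the 5 motifs. The RefSeq start of Klrk1 lies upstream of the start of the transcript used for counting. These are letter matches, and no binding was measured.

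Between 6765529 and 17860613 reads were recovered in genes per library. Cd4 itself ranged from 166 to 275 TPM, and the summed level of 7 markers of the sorted gate from 1502 to 2075 TPM, so the gate's defining genes were present in all 28 libraries. 3 GF aCD3 libraries, F1, M3 and M4, stood apart from the other GF aCD3 libraries. Lag3, an inhibitory receptor gene, was at 9.59, 17.0 and 12.3 TPM in them, within the 5.41 to 18.5 TPM of the GF isotype libraries, while GF aCD3 M1, M2 and M5 held 452 to 527 TPM and SPF aCD3 libraries 505 to 825 TPM. Il10 likewise was at 93.5 to 141 TPM in them and at 403 to 630 TPM in the other 3. The GF aCD3 values of the 10 genes over both runs are therefore given with and without F1, M3 and M4; what sets them apart was not tested. The sample numbers fall into 3 runs: all SPF libraries in one, and the GF libraries in an earlier and a later one, so housing and run cannot be told apart. The least and the most deeply sequenced library were both GF isotype. Log2 fold changes below are differences of log2(TPM + 1), which understate the change of low genes. The median tested gene fell by 0.35 on this scale in SPF aCD3 libraries, by 0.15 in GF aCD3 libraries and was 0.15 higher in GF than in SPF isotype libraries. Median of ratios scaling, which centres the typical gene near 0, is given wherever it alters the call of one of the 10 genes. TPM here divides by a gene's whole genomic span, so levels are compared between libraries and not between genes.

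Under aCD3 in SPF mice the 10 genes split: Gzma, Gzmb and Nkg7 rose, Fasl, Klrk1 and Ctsw fell, and Gzmk, Prf1, Klrc1 and Klrd1 did not pass the test. Gzma rose 10.1-fold in mean TPM, the largest rise among the 10, and Klrk1 fell 7.03-fold, the largest fall. The 6 calls stand against a background in which 64.8% of all tested genes were called, 14.2% higher and 50.7% lower. The test was limma on log2(TPM + 1) with sex as a term, called at an adjusted p under 0.05 over all 12182 genes. With median of ratios scaling 8 members passed, these 6 and Gzmk and Klrc1 higher, where 59.9% of tested genes did, 30.6% higher and 29.3% lower. Because the 10 genes moved in opposite directions, they are described one by one. Nothing shows that libraries of a group came from separate mice, so p-values measure the spread between libraries. Because the RNA is bulk, fewer cells that carry a transcript and less transcript per cell cannot be told apart.

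**Figure D1:**
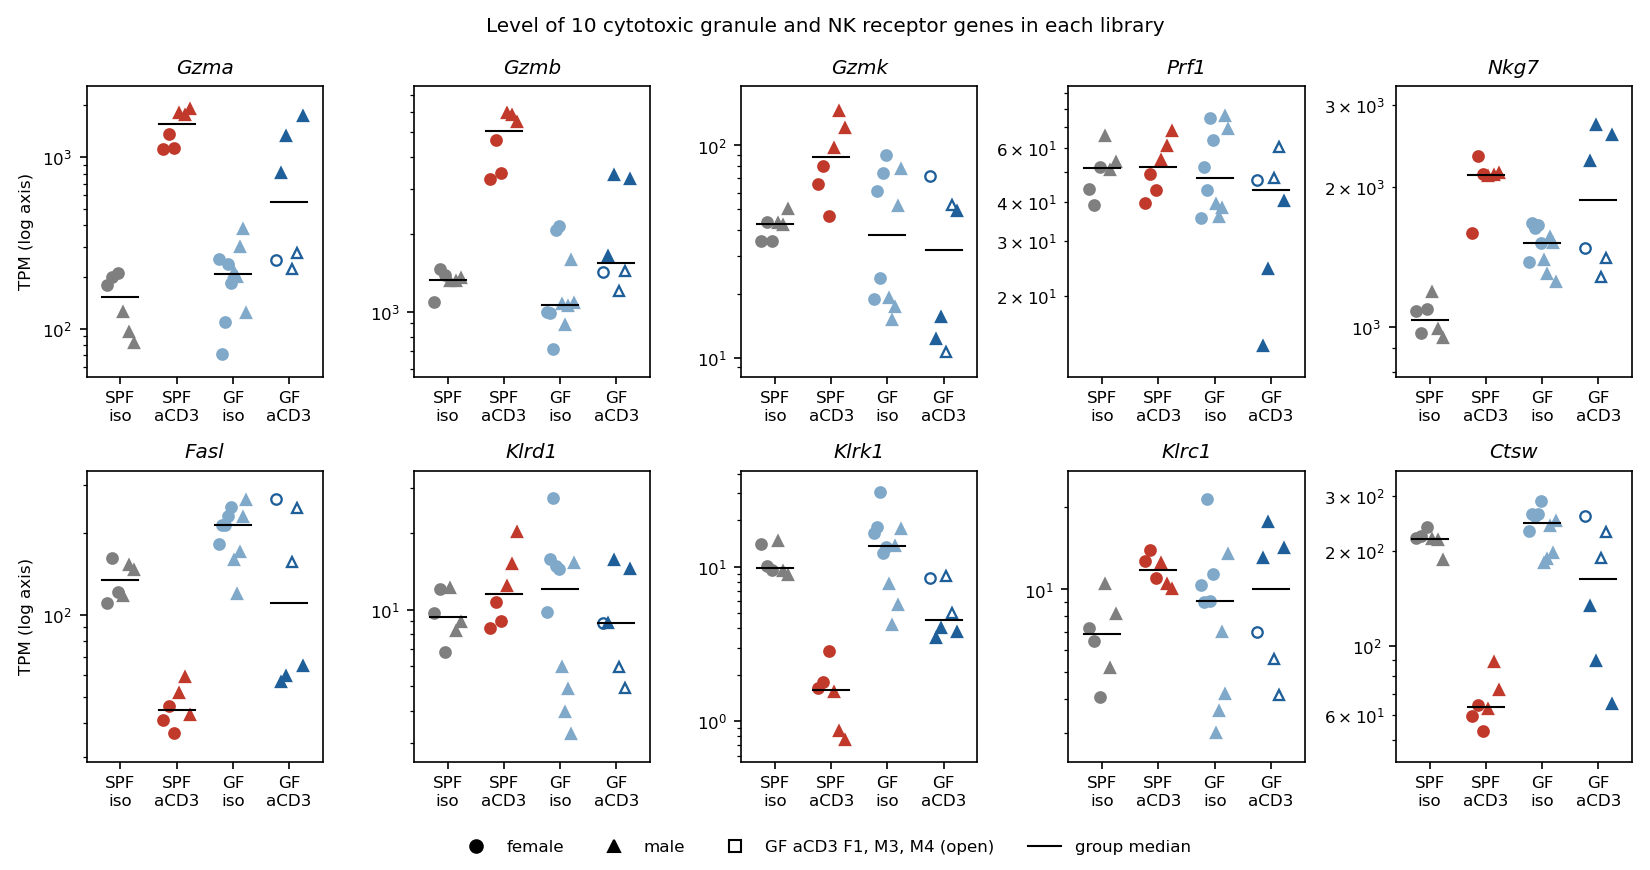
TPM (log axis, a separate scale for each gene) of the 10 genes in each of the 28 libraries, by group; circles are female and triangles male, open symbols are GF aCD3 F1, M3 and M4, and black lines are group medians. SPF aCD3 libraries lie wholly above SPF isotype for Gzma, Gzmb and Nkg7 and wholly below for Fasl, Klrk1 and Ctsw, and the open symbols lie near the GF isotype libraries for Gzma and Nkg7.

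Gzma encodes granzyme A, a tryptase-like granule protease. It ranged from 83.0 to 210 TPM (median 152) in the 6 SPF isotype libraries and from 1117 to 1912 TPM (median 1552) in the 6 SPF aCD3 libraries. The lowest aCD3 library was above the highest isotype library, and 8.57% of tested genes were higher without overlap in this way. Its log2 fold change was 3.39 ± 0.44 (SE), with a limma adjusted p of 2.98e-06. The call held with each of the 28 libraries left out, with values from 3.20 to 3.54.

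Gzmb encodes granzyme B, which cleaves after aspartate and activates caspases. SPF isotype libraries held 1091 to 1467 TPM (median 1331) and SPF aCD3 libraries 3298 to 5917 TPM (median 5074). The groups did not overlap, and the mean was 3.62-fold higher. This gave a log2 fold change of 1.82 ± 0.27 (SE, adjusted p = 7.59e-06). The aCD3 libraries themselves fell into a lower set, F1 and F3, at 3298 and 3453 TPM, and the other 4, at 4677 TPM or more.

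Nkg7 encodes a granule membrane protein needed for full degranulation of killer lymphocytes. It stood at 947 to 1189 TPM (median 1035) under isotype and 1591 to 2325 TPM (median 2124) under aCD3, again without overlap. In log2 terms the change was 0.98 ± 0.15 (SE, adjusted p = 1.26e-05). Quantile normalization lowered it to 0.29 (adjusted p = 0.0318).

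Ctsw encodes cathepsin W, a papain-like cysteine protease of cytotoxic lymphocytes (chr19:5465043-5468507, mm10). It went the opposite way from the granzymes: 188 to 239 TPM (median 220) under isotype and 53.4 to 88.9 TPM (median 63.8) under aCD3. The mean was 3.25-fold lower, with a log2 fold change of -1.70 ± 0.22 (SE, adjusted p = 2.81e-06). Its 3′ end shares 9 bases with the gene Fibp in the annotation used for counting, so a few reads could belong to either.

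Fasl fell as well, from 111 to 162 TPM (median 134) under isotype to 36.8 to 59.2 TPM (median 44.7) under aCD3. The mean was 2.92-fold lower and the log2 fold change -1.53 ± 0.30 (SE, adjusted p = 0.000112). All 6 aCD3 libraries were below every isotype library for Fasl and for Ctsw, and 33.4% of tested genes were lower without overlap.

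Klrk1, the NKG2D gene, ranged from 8.90 to 14.6 TPM (median 9.82) under isotype and from 0.759 to 2.87 TPM (median 1.59) under aCD3. Read support was 180 to 336 reads per isotype library and 15 to 83 reads per aCD3 library. On the log2 scale the difference was -2.26 ± 0.27 (SE, adjusted p = 1.43e-06). The 2 lowest libraries, M2 and M3, were at 0.864 and 0.759 TPM, and the highest, F3, was still below the lowest isotype library.

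The pore former did not follow the granzymes. Prf1 (chr10:61297836-61304263, mm10) was at 39.1 to 65.6 TPM (median 51.4) under isotype and 39.7 to 67.7 TPM (median 51.97) under aCD3, and the 2 ranges almost coincide. Its log2 fold change was 0.04 with a 95% interval from -0.50 to 0.59 (adjusted p = 0.897). Relative to the typical gene, with median of ratios scaling, it was 0.46 (adjusted p = 0.104).

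Gzmk (chr13:113171630-113180965, mm10), a granzyme with tryptase-like activity, was at 35.6 to 50.2 TPM (median 42.6) under isotype and 46.6 to 145 TPM (median 88.7) under aCD3. 5 of the 6 aCD3 libraries were above all isotype libraries, and F3, at 46.6 TPM, was not. This gave a log2 fold change of 1.05 ± 0.48 (SE, adjusted p = 0.0581), short of the threshold. With median of ratios scaling it was 1.47 and passed (adjusted p = 0.0102), and it also passed without GF aCD3 F1, M3 and M4 (adjusted p = 0.0403, where 67.5% of tested genes passed), which share their spread estimate with the SPF libraries. Gzmk passed in 2 of 28 fits with 1 library left out and in 10 of 14 other alternatives.

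The 2 partners of the inhibitory receptor lay close to the threshold or far from it. Klrc1 was at 4.06 to 10.4 TPM (median 6.86) under isotype and 10.0 to 14.0 TPM (median 11.8) under aCD3, with 4 aCD3 libraries above all isotype libraries. Its log2 fold change was 0.73 ± 0.34 (SE, adjusted p = 0.0629); it passed with median of ratios scaling, at 1.13 (adjusted p = 0.00971), and without GF aCD3 F1, M3 and M4 (adjusted p = 0.0325). Klrd1 was at 6.80 to 12.2 TPM (median 9.32) under isotype and 8.46 to 20.2 TPM (median 11.5) under aCD3, with a log2 fold change of 0.32 (95% interval -0.42 to 1.07, adjusted p = 0.444). Whether the receptor genes differ from each other in their change was not tested. Klrc1 has close paralogs in Klrc2 and Klrc3, and how reads shared between them were assigned is not given in the sources used here, so its level is uncertain.

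**Figure D2:**
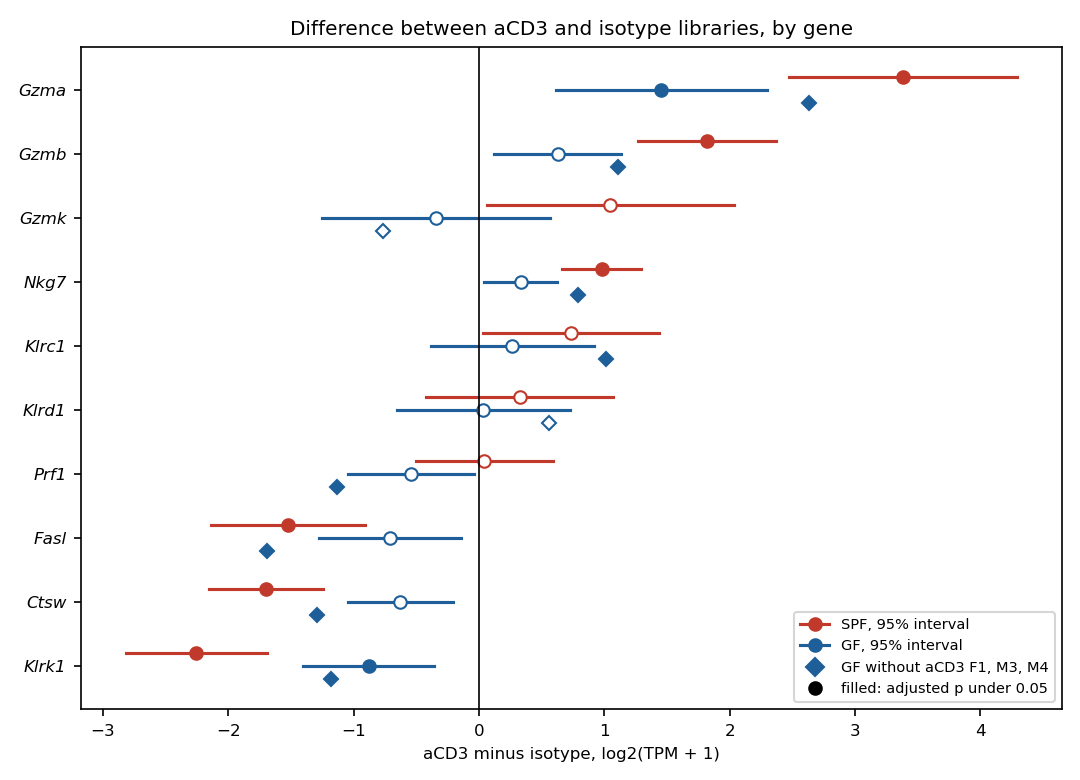
Difference in log2(TPM + 1) between aCD3 and isotype libraries (x axis) for each gene, in SPF (red) and GF (blue) mice with 95% intervals; diamonds are the GF value without aCD3 F1, M3 and M4, and filled symbols have an adjusted p under 0.05. SPF values run from 3.39 for Gzma to -2.26 for Klrk1, and for 7 of the 10 genes the GF diamond is filled on the same side of 0 as the SPF value; the 8th filled diamond is Prf1.

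Other genes of the same pathways moved in both directions in SPF mice. Each list count below stands against the 14.2% of all tested genes that were higher and the 50.7% that were lower. Of 14 genes of granule loading and release, 13 were tested, and 4 rose and 4 fell. Cst7, which encodes cystatin F, an inhibitor of granule cathepsins, rose by 0.99 on the log2 scale (adjusted p = 6.59e-05; 39.0 to 78.3 TPM in the mean), and the lysosomal membrane gene Lamp2 rose by 0.55 (adjusted p = 0.000136). Its relative Lamp1, the classic degranulation marker, had a log2 fold change of -0.95 (adjusted p = 5.11e-06), and the lysosomal trafficking regulator Lyst one of -1.09 (adjusted p = 0.000252). The split was 7 higher and 2 lower with median of ratios scaling, where 30.6% of all tested genes were higher and 29.3% lower. The median of the 13 was -0.16, against -0.35 over all tested genes.

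Serpins that inhibit granule proteases also split. Of the 5 tested, 3 rose and 2 fell. Serpinb6b rose by 1.70 on the log2 scale (adjusted p = 1.46e-06; mean 37.8 to 128 TPM) and Serpinb6a by 0.68 (adjusted p = 0.00235), and Serpinb9, an inhibitor of granzyme B named here after its value was seen, rose too. Serpina3g had a log2 fold change of -2.13 (adjusted p = 1.03e-06; mean 272 to 61.0 TPM) and Serpinb1a one of -0.85 (adjusted p = 8.58e-05). The same members passed in the same directions with median of ratios scaling. These are multigene families in which near-identical copies can share reads. Among the other granzymes, Gzmc and Gzmm were the 2 tested of 7, and neither passed; Gzmd, Gzme, Gzmf, Gzmg and Gzmn were under the level filter.

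NK receptor genes outside the 10 were lower or did not pass. Of 12 tested NK-associated receptors and adaptors outside the Klr family, 10 fell and 0 rose (8 and 0 with median of ratios scaling, where 29.3% of all tested genes were lower), with a median of -1.26. Cd226, an activating adhesion receptor, had a log2 fold change of -2.81 (adjusted p = 3.85e-07; mean 57.3 to 7.24 TPM) and Cd96, which shares its ligand, one of -1.66 (adjusted p = 4.92e-06). Hcst, the adaptor through which NKG2D signals, went from a mean of 167 to 45.0 TPM, a log2 fold change of -1.86 (adjusted p = 3.86e-06), in the same direction as Klrk1. Ncr1, the NKp46 gene carried by NK cells and by some innate lymphoid cells of the gut, was at a mean of 3.91 TPM under isotype and 0.237 TPM under aCD3 (log2 fold change -1.97, adjusted p = 6.80e-06).

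Of 12 tested further Klr genes, 6 fell and 0 rose, a share of lower genes near the 50.7% over all tested genes; with median of ratios scaling 4 fell and 0 rose, again near the 29.3% of all tested genes. Klrb1c, the NK1.1 gene, had a log2 fold change of -2.67 (adjusted p = 7.40e-06; mean 21.5 to 2.55 TPM). Klre1, Klrb1f and Klrb1b had log2 fold changes of -1.67, -1.25 and -1.24, all past the threshold. The summed level of 9 NK and ILC1 markers was 37.2 to 56.8 TPM in SPF isotype libraries and 5.65 to 11.5 TPM in SPF aCD3 libraries. All 9 of these markers are also in the receptor or transcription factor lists described here. It moved with the fall of Klrk1 and the other receptors and opposite to Gzma, Gzmb and Nkg7; its part in these results was not tested.

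The markers of other cells moved too. The summed level of Cd8a and Cd8b1 was 5.68 to 13.5 TPM under isotype and 9.75 to 23.8 TPM under aCD3, and B and plasma cell markers went from 96.4 to 273 TPM down to 2.91 to 9.11 TPM. Of 7 mast cell markers 4 (Mcpt1, Mcpt2, Mcpt4 and Cma1) were at 0 in all 28 libraries. Myeloid markers summed to 3.98 to 12.8 TPM under isotype and 57.7 to 106 TPM under aCD3, a rise carried by Cd68, which was at a mean of 5.99 and 76.5 TPM. Epithelial markers summed to 6.30 to 12.8 TPM and 2.69 to 6.18 TPM, and stromal markers to 4.42 to 42.1 TPM and 0.467 to 2.28 TPM. The part of these levels in the results was not tested.

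Of 12 tested transcription factors tied to cytotoxic T cells, 4 were higher and 6 lower, where 14.2% of all tested genes were higher and 50.7% lower, so the count of lower genes was near the background. The counts were 4 and 4 with median of ratios scaling, where 30.6% were higher and 29.3% lower. Zbtb32 rose by 2.22 on the log2 scale (adjusted p = 4.48e-05) and Nfil3 by 1.14 (adjusted p = 0.00192). Tcf7, a factor of less differentiated T cells, had a log2 fold change of -1.58 (adjusted p = 0.000352) and Eomes one of -1.08 (adjusted p = 0.0163), from a mean of 3.06 to 0.422 TPM. Of 6 death ligands and receptors besides Fasl, 4 fell and 0 rose: Tnfrsf1a had a log2 fold change of -1.32 (adjusted p = 1.75e-05), Tnf one of -1.23 (adjusted p = 4.28e-06), Lta one of -0.75 (adjusted p = 0.0191) and Tnfsf10 one of -0.33 (adjusted p = 0.0105). With median of ratios scaling only Tnf and Tnfrsf1a of these 4 passed.

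In GF mice the same antibody gave 2 calls among the 10 genes, Gzma higher and Klrk1 lower, where 7.08% of all tested genes were called, 2.46% higher and 4.61% lower. With median of ratios scaling the same 2 passed, where 9.73% of tested genes did, 5.62% higher and 4.1% lower. Both had an adjusted p of 0.0481, and each call was lost when any of 25 of the 28 libraries was left out, fits in which 0 of all tested genes passed; it was kept without GF aCD3 F1, M3 or M4. Without these 3 libraries together, 8 of the 10 genes passed, where 59.6% of all tested genes did: Gzma, Gzmb, Nkg7 and Klrc1 were higher and Ctsw, Fasl, Klrk1 and Prf1 lower. The 3 libraries left are male, and this alternative was chosen after Lag3 values were seen. In this fit 12.3% of all tested genes were higher and 47.3% lower. Below, M1, M2 and M5 are also set against the range of the isotype libraries. The share of all tested genes outside that range in these 3 libraries was not counted.

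Gzma was at 71.1 to 380 TPM (median 208) in the 10 GF isotype libraries. The 6 GF aCD3 libraries held 251 (F1), 812 (M1), 1332 (M2), 223 (M3), 274 (M4) and 1735 TPM (M5). M1, M2 and M5 were above all isotype libraries, and F1, M3 and M4 were inside the isotype range. In log2 terms the change was 1.46 ± 0.41 (SE, adjusted p = 0.0481) with all libraries and 2.64 ± 0.40 (SE, adjusted p = 6.28e-06) without F1, M3 and M4. Markers of other cells moved with this division. Cd8a was at 11.1, 8.78 and 12.6 TPM in M1, M2 and M5 and at 2.90, 4.60 and 6.63 TPM in F1, M3 and M4, against 0.944 to 6.997 TPM in 9 of the 10 isotype libraries and 60.02 TPM in isotype M4. Cd8b1, the gene of the other CD8 chain, was at 0.272 to 1.90 TPM under aCD3 and 0.223 to 1.54 TPM under isotype. Myeloid markers summed to 45.2, 47.1 and 59.1 TPM in M1, M2 and M5, to 19.6, 9.05 and 18.1 TPM in F1, M3 and M4 and to 3.90 to 20.1 TPM under isotype. NK and ILC1 markers divided the opposite way, at 13.4, 10.6 and 8.02 TPM in M1, M2 and M5 and 31.7, 25.7 and 27.3 TPM in F1, M3 and M4, with 16.5 to 73.5 TPM under isotype. B and plasma cell markers did so too, at 6.87, 8.57 and 7.82 TPM in the first set and 19.7, 98.7 and 31.1 TPM in the second, with 11.3 to 115 TPM under isotype. Epithelial markers summed to 6.31, 6.18 and 4.70 TPM in M1, M2 and M5, to 28.1, 9.88 and 21.1 TPM in F1, M3 and M4 and to 6.43 to 41.9 TPM under isotype. Their part in the granzyme values was not tested.

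Gzmb showed the same division less fully. It was at 713 to 2163 TPM (median 1062) under isotype and at 1432 (F1), 1651 (M1), 3404 (M2), 1200 (M3), 1436 (M4) and 3292 TPM (M5) under aCD3. M2 and M5 exceeded every isotype library while M1, one of the libraries with high Lag3, did not. By run, isotype libraries were at 713 to 1074 TPM in the earlier run and 1082 to 2163 TPM in the later one. In the earlier run, which holds M1, M2 and M3, aCD3 libraries were at 1200 to 3404 TPM. Those of the later run were at 1432 to 3292 TPM. On the log2 scale the difference was 0.63 ± 0.25 (SE, adjusted p = 0.0817), and 1.11 ± 0.29 (SE, adjusted p = 0.00235) without F1, M3 and M4.

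Nkg7 was at 1249 to 1672 TPM (median 1514) under isotype. Under aCD3 it was at 2268, 2715 and 2579 TPM in M1, M2 and M5 and at 1478, 1279 and 1408 TPM in F1, M3 and M4. The first set was above and the second inside the isotype range. Its log2 fold change was 0.33 ± 0.14 (SE, adjusted p = 0.0972) with all libraries and 0.79 ± 0.11 (SE, adjusted p = 2.20e-06) without the 3.

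The genes that fell in SPF mice divided in the same way. Fasl was at 119 to 263 TPM (median 214) under isotype, at 56.9, 59.8 and 65.0 TPM in aCD3 M1, M2 and M5, and at 266, 156 and 247 TPM in F1, M3 and M4. Ctsw was at 184 to 289 TPM (median 246) under isotype, at 134, 89.3 and 65.1 TPM in M1, M2 and M5, and at 259, 191 and 231 TPM in F1, M3 and M4. For both genes M1, M2 and M5 were below all 10 isotype libraries. Their log2 fold changes were -0.71 (adjusted p = 0.0776) for Fasl and -0.63 (adjusted p = 0.0537) for Ctsw with all libraries. With all libraries kept, both passed as lower with array weights and with the run of sample numbers as a covariate (29.8% and 18.2% of tested genes passed). Without F1, M3 and M4 the log2 fold changes were -1.69 (adjusted p = 1.30e-07) for Fasl and -1.30 (adjusted p = 1.19e-06) for Ctsw.

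For Klrk1 all 6 aCD3 libraries lay below the isotype median. It was at 4.17 to 30.2 TPM (median 13.5) under isotype, at 3.44, 4.04 and 3.78 TPM in M1, M2 and M5, and at 8.40, 8.77 and 5.05 TPM in F1, M3 and M4. M1, M2 and M5 were below all isotype libraries, though the lowest isotype library, M2 at 4.17 TPM, was close to them. The isotype libraries are 5 female and 5 male, and 5 of the 6 aCD3 libraries are male. Isotype females were at 16.7 to 30.2 TPM in the earlier run and 12.3 to 13.5 TPM in the later one. Isotype males were at 4.17 to 13.5 and 5.64 to 17.6 TPM. With sex as a term, the log2 fold change was -0.88 ± 0.25 (SE, adjusted p = 0.0481). It was -1.18 ± 0.32 (SE, adjusted p = 0.00308) without F1, M3 and M4. The summed NK and ILC1 markers were likewise below all isotype libraries in M1, M2 and M5 and inside the isotype range in F1, M3 and M4; their part in this was not tested.

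Prf1 had no difference past the threshold in either housing in the reported fit, but was lower in GF mice without F1, M3 and M4. With all libraries kept, it also passed as lower in GF mice with array weights and with the run of sample numbers as a covariate. In those fits 29.8% and 18.2% of tested genes passed, 23.4% and 12.2% lower. It was at 35.5 to 75.8 TPM (median 47.96) under isotype and at 13.7 (M1), 24.4 (M2), 40.5 (M5), 47.1 (F1), 47.8 (M3) and 60.4 TPM (M4) under aCD3. In log2 terms the change was -0.54 (adjusted p = 0.116) with all libraries and -1.14 (adjusted p = 0.000998) without the 3. The 2 lowest values, in M1 and M2, were in the earlier run, where isotype values were also lower (35.5 to 51.96 TPM). In the later run, which holds F1, M4 and M5, aCD3 libraries were at 40.5 to 60.4 TPM and isotype libraries at 63.3 to 75.8 TPM. Granzyme A and perforin values thus lay in opposite directions in the same GF libraries: M1 held 812 TPM of Gzma and 13.7 TPM of Prf1.

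Klrc1 was at 2.99 to 21.4 TPM (median 9.06) under isotype, at 13.0, 17.7 and 14.2 TPM in M1, M2 and M5 and at 7.02, 5.58 and 4.11 TPM in F1, M3 and M4; no aCD3 library left the isotype range. Its log2 fold change was 0.27 (adjusted p = 0.551), and 1.02 (adjusted p = 0.0167) without the 3. Klrd1, at 0.04 (adjusted p = 0.947), and Gzmk, at -0.34 (adjusted p = 0.586), passed neither with nor without them (0.56, adjusted p = 0.264, and -0.76, adjusted p = 0.220).

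**Figure D3:**
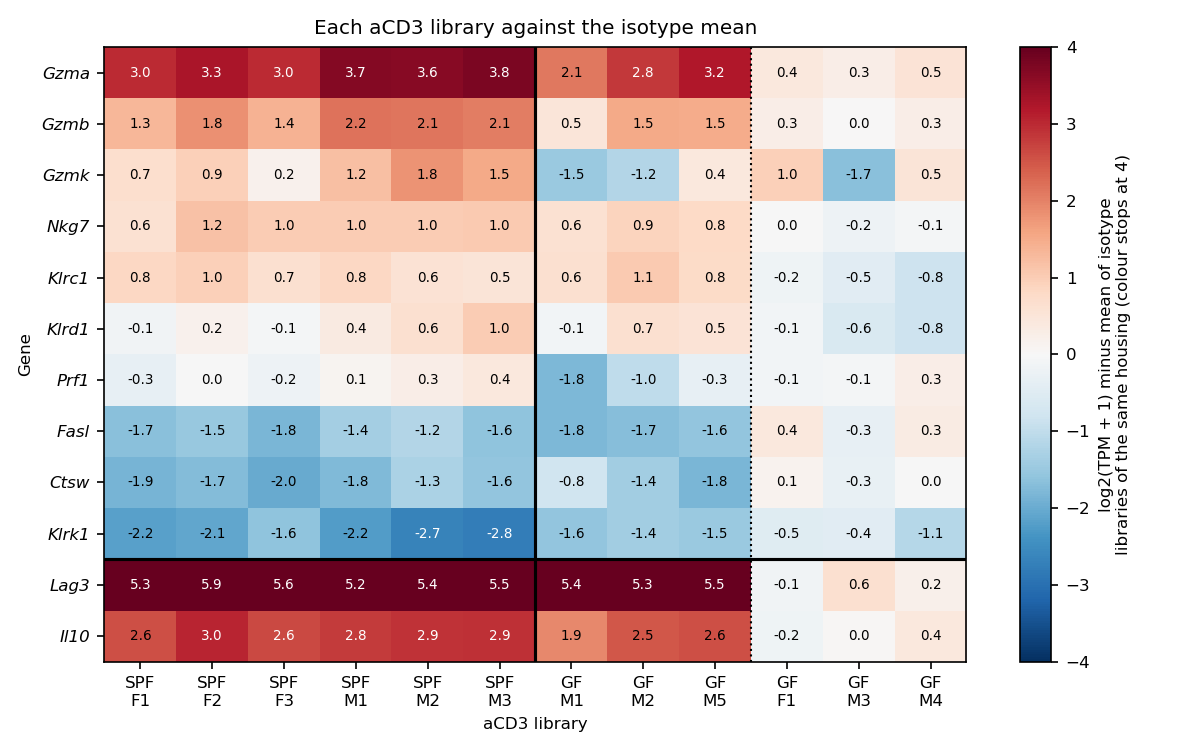
Each of the 12 aCD3 libraries (columns) against the mean of the isotype libraries of the same housing, as a difference in log2(TPM + 1), for the 10 genes and for Lag3 and Il10 (rows). Red is higher and blue lower, with the colour stopping at 4; GF M1, M2 and M5 share the SPF pattern for Gzma, Nkg7, Fasl, Ctsw and Klrk1, and GF F1, M3 and M4 stay near 0 for Gzma, Nkg7, Lag3 and Il10.

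With all libraries, 0 to 2 genes of each list passed in GF mice, where 2.46% of all tested genes were higher and 4.61% lower. The counts without F1, M3 and M4 stand beside them, and in that fit 12.3% of all tested genes were higher and 47.3% lower. Of the 12 NK-associated receptors and adaptors, 1 fell, Hcst (-0.89, adjusted p = 0.0481); without the 3 libraries 9 fell and 1 rose. Of the 12 further Klr genes 2 fell, Klrb1c (-1.31) and Klrb1f (-0.92), both with an adjusted p of 0.0481, and without the 3 libraries 2 fell and 1 rose. In granule loading and release Cst7 was higher (0.56, adjusted p = 0.0488) and 0 fell, and without the 3 libraries 4 rose and 6 fell. Of the 5 serpins Serpina3g passed, at -0.81 (adjusted p = 0.0481), and without the 3 libraries 2 rose and 1 fell. Among the death ligands and receptors Tnf passed, at -0.50 (adjusted p = 0.0499), though not with median of ratios scaling, and without the 3 libraries 3 fell. None of the 12 transcription factors passed with all libraries; without the 3, 3 rose and 7 fell. The tested granzymes Gzmc and Gzmm passed in neither fit. Without the 3 libraries the log2 fold changes of these named genes were -1.78 for Hcst, -2.48 for Klrb1c, -1.70 for Klrb1f, 1.149 for Cst7, -1.58 for Serpina3g and -0.85 for Tnf, with limma adjusted p-values of 0.000188 for Tnf and 4.39e-07 or less for the others. All of these GF genes were picked by their size in SPF mice, or are the full set called, and their adjusted p-values with all libraries lie at the edge of the threshold.

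Within each GF run the number of libraries was small: 6 isotype against 3 aCD3 in the earlier run and 4 against 3 in the later one. No member passed within either run with limma, and 1 of the 12182 tested genes (0.00821%) did in each, so these fits tell nothing particular about the 10 genes. Gzma had a log2 fold change of 1.41 (adjusted p = 0.368) within the earlier run and 1.102 (adjusted p = 0.734) within the later one, both in the direction of the pooled value. Klrk1 had values of -0.53 (adjusted p = 0.509) and -0.85 (adjusted p = 0.734), also in the pooled direction.

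Without aCD3, housing made little difference that passed the test. Nkg7 was the 1 gene of 10 called between GF and SPF isotype libraries, where 7.17% of tested genes were called, 6.42% higher and 0.755% lower in GF. It was at 1249 to 1672 TPM in the 10 GF and 947 to 1189 TPM in the 6 SPF libraries, so every GF library was above every SPF library (2.39% of tested genes were higher without overlap). On the log2 scale the difference was 0.51 ± 0.14 (SE, adjusted p = 0.0249), and 0.35 with an adjusted p of 0.443 with median of ratios scaling, where 1.63% of tested genes passed, 0.542% higher and 1.09% lower. The call was also lost without SPF isotype F3, M2 or M3 (adjusted p up to 0.0552). Fasl was at 119 to 263 TPM in GF and 111 to 162 TPM in SPF libraries, with 8 of 10 GF libraries above all SPF ones (0.56, adjusted p = 0.186; adjusted p = 0.00909 without GF aCD3 F1, M3 and M4, where 20.3% of tested genes passed). Under median of ratios scaling with the same 3 libraries left out, Fasl was at 0.40 and did not pass (adjusted p = 0.104), while Nkg7 did (adjusted p = 0.0299), where 4.27% of tested genes were called. Markers of other cells also differed between the isotype groups. Stromal markers summed to 4.42 to 42.1 TPM in SPF and 0.384 to 2.82 TPM in GF libraries, and B and plasma cell markers to 96.4 to 273 TPM and 11.3 to 115 TPM. Epithelial markers summed to 6.30 to 12.8 TPM in SPF and 6.43 to 41.9 TPM in GF libraries. Cd8a and Cd8b1 together were at 5.68 to 13.5 TPM (median 8.11) in SPF and 1.25 to 61.2 TPM (median 2.90) in GF libraries. Their part in the Nkg7 difference was not tested.

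For the other genes no difference passed. Gzma differed by 0.42 (95% interval -0.40 to 1.23, adjusted p = 0.526), and Gzmb by -0.15 (-0.64 to 0.34, adjusted p = 0.713). Ctsw differed by 0.11 (-0.30 to 0.52, adjusted p = 0.749) and Klrk1 by 0.16 (-0.35 to 0.66, adjusted p = 0.708). Gzmk differed by -0.18 (adjusted p = 0.809), but by -0.90 and past the threshold with the run of sample numbers as a covariate (adjusted p = 0.0272, where 10.1% of tested genes passed). In that fit GF is represented by its earlier run, and all SPF libraries are in a run of their own. The GF isotype libraries spread more than the SPF ones: Gzmk had an SD of 29.3 TPM around a mean of 45.0 TPM in GF and of 5.48 TPM around 41.7 TPM in SPF. GF isotype M4 held the highest Gzma of its group (380 TPM) and also 60.02 TPM of Cd8a, against 0.944 to 6.997 TPM in the other 9.

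With aCD3 in both housings, 6 of the 10 genes differed between GF and SPF, where 53.3% of tested genes were called (48.9% higher and 4.46% lower in GF). Klrk1 (1.53 ± 0.28 SE, adjusted p = 0.000428), Fasl (1.38 ± 0.31 SE, adjusted p = 0.00123) and Ctsw (1.18 ± 0.23 SE, adjusted p = 0.000558) were higher in GF. Gzmk (-1.57 ± 0.49 SE, adjusted p = 0.0103), Gzma (-1.51 ± 0.45 SE, adjusted p = 0.00797) and Gzmb (-1.34 ± 0.27 SE, adjusted p = 0.000748) were lower. All 6 GF libraries had more Klrk1 than any SPF aCD3 library, and for the other 5 genes the ranges overlapped; 12.2% of tested genes were higher in GF without overlap. Prf1 had a difference of -0.58, short of the threshold (adjusted p = 0.0765), and passed at -0.98 with median of ratios scaling (adjusted p = 0.00579), where 32.7% of tested genes did, 15.8% higher and 16.9% lower. It passed in 1 of 28 fits with 1 library left out and in 8 of 14 other alternatives.

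Most of these calls were lost without GF aCD3 F1, M3 and M4, where 3.52% of tested genes were called. Klrk1 (1.23, adjusted p = 0.0485) and Prf1 (-1.17, adjusted p = 0.0285) were the 2 that passed. Gzma went to -0.33 (adjusted p = 0.653), Fasl to 0.40 (adjusted p = 0.2402), Ctsw to 0.52 (adjusted p = 0.101) and Gzmb to -0.86 (adjusted p = 0.110). Gzmk was at -1.996 (adjusted p = 0.0502). With median of ratios scaling besides, where 2.22% of tested genes were called, Klrk1 no longer passed (1.16, adjusted p = 0.0764), and the 2 that passed were both lower in GF: Gzmk (-2.19, adjusted p = 0.0390) and Prf1 (-1.36, adjusted p = 0.0131).

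The test of the difference itself, the GF effect of aCD3 minus the SPF effect, called Klrk1 (1.37 ± 0.37 SE, adjusted p = 0.0434) and Ctsw (1.07 ± 0.30 SE, adjusted p = 0.0478), where 3.48% of tested genes were called, 2.44% higher and 1.04% lower. For both, the fall under aCD3 was smaller in GF mice. Gzma (-1.93, adjusted p = 0.0581), Gzmb (-1.19, adjusted p = 0.0564) and Nkg7 (-0.65, adjusted p = 0.0618) had smaller rises in GF mice short of the threshold, and each passed with median of ratios scaling (adjusted p = 0.0421, 0.0325 and 0.0440), where 11.7% of tested genes did, 5.16% higher and 6.51% lower. Leaving out 1 library ended the Klrk1 call in 19 of 28 cases and the Ctsw call in 24 of 28. Without GF aCD3 F1, M3 and M4 no member passed (Klrk1 1.07, adjusted p = 0.415; Ctsw 0.41, adjusted p = 0.610), and 6 of all tested genes (0.0493%) did, while 1118 had an unadjusted p under 0.05.

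Among GF libraries Gzmk and Prf1 followed the run of sample numbers. In the later run Gzmk was at 51.99 to 90.3 TPM in the 4 isotype and 49.1 to 72.0 TPM in the 3 aCD3 libraries. In the earlier run it was at 15.1 to 60.8 TPM in the 6 isotype libraries, 5 of them at 23.8 TPM or less, and at 10.7 to 15.5 TPM in the 3 aCD3 libraries. With run as a term, Gzmk was 1.79 ± 0.24 (SE) higher in the later run (adjusted p = 7.75e-05) and Prf1 0.86 ± 0.17 (SE) higher (adjusted p = 0.00385), where 4.53% of tested genes were called. Prf1 isotype libraries were at 63.3 to 75.8 TPM in the later and 35.5 to 51.96 TPM in the earlier run, without overlap, and 5.51% of tested genes were higher in the later run in this way. Fasl had a value of 0.66 (adjusted p = 0.1004), and the other 7 genes had values between -0.14 and 0.53 short of the threshold. This comparison was added after the values were seen, and what differs between the runs is not given in the sources used here.

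**Figure D4:**
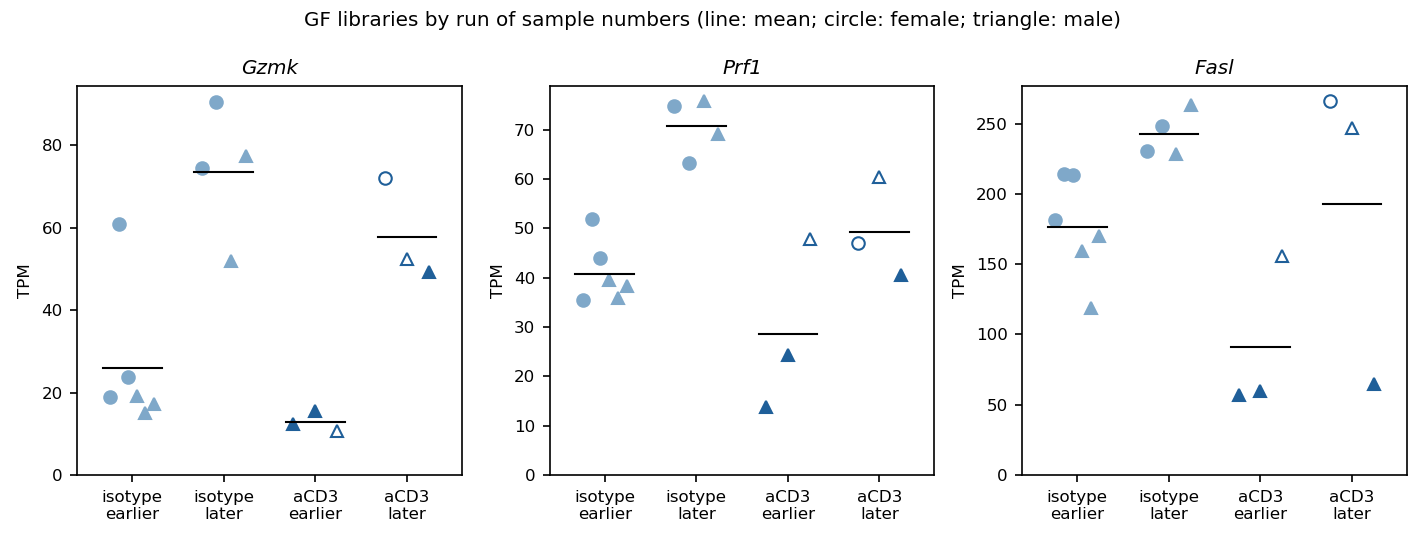
TPM of Gzmk, Prf1 and Fasl in the GF libraries, by treatment and run of sample numbers; circles are female, triangles male, open symbols aCD3 F1, M3 and M4, and lines the means. Prf1 isotype values of 63.3 to 75.8 TPM in the later run lie above the 35.5 to 51.96 TPM of the earlier run, and Gzmk is higher in the later run in both treatments except for 1 isotype library at 60.8 TPM.

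The sexes could be compared in SPF mice, with 3 libraries of each sex per group. Gzma was at 83.0 to 125 TPM in males and 179 to 210 TPM in females under isotype, and at 1751 to 1912 TPM in males and 1117 to 1353 TPM in females under aCD3. Neither pair of ranges overlapped, and males were the lower sex under isotype and the higher one under aCD3. Of all tested genes 3.6% separated the sexes in the first way under isotype, 8.04% in the second way under aCD3, and 0.246% (30 genes) in both. The sex difference in the aCD3 effect was 1.58 ± 0.82 (SE, adjusted p = 0.689), which fails the test; 0 of 12182 genes (0%) passed it with limma and 924 had an unadjusted p under 0.05. Gzmb under aCD3 was at 5471 to 5917 TPM in males and 3298 to 4677 TPM in females (male minus female 0.61, adjusted p = 0.872). These ranges were noticed after the values were seen.

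Without stimulation, the 3 receptor genes and Ctsw varied together among the 10 GF isotype libraries, and Gzmk, Prf1 and Fasl did so too. All 45 pairs of the 10 genes were compared by Pearson's r on log2(TPM + 1), with p from 100000 permutations and Benjamini-Hochberg adjustment over the 45; 9 pairs passed on r, those among the 3 receptor genes, those of Ctsw with each of them, and those among Gzmk, Prf1 and Fasl. Klrk1 and Klrc1 had r = 0.91 (permutation p = 0.00053, adjusted 0.00945; rho = 0.76, permutation p = 0.0148, adjusted 0.0953). Without the 2 libraries farthest from the median r was 0.91, and within the 6 libraries of the earlier run it was 0.93. Klrd1 and Klrc1 had r = 0.89 (adjusted permutation p = 0.00945; rho = 0.76, adjusted 0.0953), 0.83 without the 2 farthest libraries and 0.87 in the earlier run. Klrd1 and Klrk1 had r = 0.87 (adjusted permutation p = 0.00945; rho = 0.84, adjusted 0.0792), 0.75 without the 2 farthest and 0.87 in the earlier run. The 3 genes lie together in the NK gene complex, Klrd1 at chr6:129591810-129598775, Klrk1 at chr6:129610323-129622683 and Klrc1 at chr6:129666016-129678973 (mm10). For all 3 genes female F3 was the highest library, and of the males M5 alone was among the higher values of Klrd1 and Klrc1: M1 to M4 held 3.24 to 5.94 TPM of Klrd1, against 9.75 TPM or more in the other 6 libraries. The summed NK and ILC1 markers, a list that holds none of the 10 genes, divided the libraries in the same way, at 16.5 to 23.2 TPM in M1 to M4 and 40.3 to 73.5 TPM in the other 6; their part in these correlations was not tested.

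Ctsw, though a granule protease, was correlated with Klrc1 (r = 0.84, adjusted permutation p = 0.0192; rho = 0.68, adjusted 0.142), Klrd1 (r = 0.80, adjusted permutation p = 0.0385; rho = 0.71, adjusted 0.14) and Klrk1 (r = 0.78, adjusted permutation p = 0.0385; rho = 0.58, adjusted 0.232). Without the 2 farthest libraries these were 0.86, 0.64 and 0.56, and within the earlier run 0.86, 0.74 and 0.89. The 10 libraries hold 5 of each sex, and females of the earlier run had a mean of 17.7 TPM of Klrd1 and 21.7 TPM of Klrk1 against 4.93 and 8.5 TPM in its males. With the sex means removed and permutations kept within sex, none of these 6 pairs passed after adjustment over the 45. Klrk1 and Klrc1 then had r = 0.85 (adjusted permutation p = 0.0945), Klrd1 and Klrk1 0.77 (adjusted 0.12) and Klrd1 and Klrc1 0.79 (adjusted 0.153). Ctsw had values of 0.56 to 0.71 with the 3 receptor genes (adjusted permutation p = 0.225 to 0.43).

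Gzmk, Prf1 and Fasl formed the other set. Gzmk and Prf1 had r = 0.91 (adjusted permutation p = 0.0190; rho = 0.79, adjusted 0.0792) and 0.94 within the 6 libraries of the earlier run, given without a test. In that run 1 library held 60.8 TPM of Gzmk, far above the mean of 25.9 TPM, and r without this library was not computed. Gzmk and Fasl had r = 0.86 (adjusted permutation p = 0.00945; rho = 0.94, adjusted 0.0112), with 0.88 without the 2 farthest libraries and 0.69 in the earlier run. Prf1 and Fasl had r = 0.82 (adjusted permutation p = 0.0190; rho = 0.81, adjusted 0.0792), 0.86 without the 2 farthest libraries and 0.71 in the earlier run. With the sex means removed the 3 pairs passed, at 0.94 for Gzmk with Prf1, 0.84 for Gzmk with Fasl and 0.85 for Prf1 with Fasl (adjusted permutation p = 0.0319, 0.0135 and 0.0319). With the run means removed as well, r was 0.68, 0.52 and 0.52, given without a test. Gzma ran opposite to Klrd1, with r = -0.73 (adjusted permutation p = 0.0738; rho = -0.79, adjusted 0.0792), short of the threshold. Gzma and Gzmb, which both rose in SPF aCD3 libraries, had r = 0.41 (adjusted permutation p = 0.463; rho = 0.36, adjusted 0.502) here. The later run held 4 libraries, too few for a value of its own.

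Over all 28 libraries, and leaving out predicted genes and small RNAs, the genes most like each member were named by Pearson's r of log2(TPM + 1). These correlations contain the group differences and are descriptions. Gzma was most like Il10, Ehd1 and Hist1h1d (r = 0.95 each), and on residuals from the group and sex means the same 3 genes led, with r = 0.82 for Ehd1 and Il10 and 0.81 for Hist1h1d. The residuals still hold the division of the GF aCD3 libraries, and over the 25 libraries without F1, M3 and M4 these were 0.77 for Ehd1, 0.61 for Il10 and 0.63 for Hist1h1d. Gzmb was most like Ecm1 (r = 0.93), Tigit (0.92) and Glrx (0.91), and on residuals like Tigit (0.83, and 0.78 without the 3 libraries) and Glrx (0.79 and 0.72). Nkg7 was most like Wdr1 (0.93), Arhgdia (0.92) and Coro1b (0.92). Over all 28 libraries Il10 thus had a higher r with Gzma, and the inhibitory receptor gene Tigit with Gzmb, than any other member had with that granzyme. Gzma and Gzmb had r = 0.88 with each other, and their r without the 3 libraries was not computed.

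Fasl was most like B3galt5 and Stk17b (r = 0.98 each) and D16Ertd472e (0.97). Ctsw was most like Tgtp1, Cxcr3 and Pdcd4 (0.97 each), where Cxcr3 is a chemokine receptor gene of type 1 T cells. Klrk1 was most like Cd93 (0.93), Trf (0.92) and Samd3 (0.92). Klrd1 and Klrc1 named each other first (0.79). On residuals each came second for the other, also at 0.79, after Plac8 (0.80) for Klrd1 and after Cd27 (0.83) for Klrc1; without the 3 libraries the residual values were 0.75 for the pair, 0.77 for Plac8 and 0.73 for Cd27. Prf1 was most like Ncald (0.84) and the chemokine gene Ccl5 (0.76), and Gzmk like Themis2 (0.83), Rap2a (0.80) and Sdcbp2 (0.79).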

How the data were processed

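Bulk RNA-seq of sorted SILP CD4+ T cells was analysed in 28 libraries. The authors deposited TPM values made with HOMER on mm10 from whole gene spans, per the file headers, and the column names are of the form STAR, an aligner, gives its output. 26 further TPM columns matched no sample and were not used. Libraries were grouped by their labels. Genes with at least 1 TPM in at least 6 libraries were tested on log2(TPM + 1) with limma 3.58.1 in R 4.3.3 (group means, sex, trended moderation, Benjamini-Hochberg adjustment over 12182 genes, threshold 0.05). Whole reads were recovered from the deposited TPM values, 100% of those checked within 0.15 of a whole number in each library, and tested with voom as an alternative. No pair of libraries held identical values. The limma script was tested on simulated data. Members and lists were chosen with earlier results of these data known. Every member is named, with up to 4 genes per list (the largest SPF aCD3 changes past the threshold) and the 3 genes most like each member, of which some are not reported here; motifs, runs, sexes and pairs of members, with and without sex means, were added after values were seen. Same-named libraries of different groups correlated at -0.30 to 0.21 in their deviations from group means, so the names were not taken to pair samples. The labels give polyA RNA as the molecule and a total RNA library kit.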

Additional observations from a re-analysis of the deposited data

Results flagged for a closer look

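Klrk1 and Ctsw differed between housings in their aCD3 effect by the test of the difference itself. The GF minus SPF effect was 1.37 for Klrk1 (limma adjusted p = 0.0434) and 1.07 for Ctsw (adjusted p = 0.0478). Without GF aCD3 F1, M3 and M4 the values were 1.07 for Klrk1 and 0.41 for Ctsw, neither past the threshold, in a fit where 6 of all tested genes passed. Housing and run of sample numbers cannot be told apart. In 40 sets of 1 gene in 1 group, 2 had a library far from the others by Dixon's criterion, about what chance gives at 1 in 20. Gzmb in SPF isotype F1 was at 1091 TPM, against 1313 to 1467 TPM in the other 5 libraries. Nkg7 in SPF aCD3 F1 was at 1591 TPM, against 2104 to 2325 TPM in the other 5.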

How the results depend on the processing

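In SPF mice Gzma, Gzmb, Nkg7, Fasl, Klrk1 and Ctsw kept their direction and call in all alternatives run. With 1 library left out, members called ranged from 6 to 7 (SPF aCD3; 61% to 66.2% of all tested genes), 0 to 7 (GF aCD3; 0% to 34.6%), 0 to 1 (isotype; 2.67% to 9.33%), 6 to 7 (aCD3 by housing; 40.1% to 59.4%) and 0 to 5 (difference of effects; 0.263% to 26.2%). GF aCD3 calls, 2 as reported where 7.08% of all tested genes passed, were 6 with array weights (29.8%), 8 without F1, M3 and M4 under either scaling (59.6% and 52.4%), 5 without a sex term (20.3%) or with run as covariate (18.2%) and 1 with voom (7.63%). They were 0 with no low-value filter, a pseudocount of 0.1, the 2 groups alone or the replicate block, where 0 of all tested genes passed, and within either run, where 1 did. The cause was not tested, except that fewer libraries entered the last fits. The isotype call became 0 with median of ratios (1.63%), voom (1.87%) or the replicate block (5.4%), and 2 without F1, M3 and M4 (20.3%; 1 with median of ratios besides, 4.27%), with the 2 groups alone (14.9%) or with run as covariate (10.1%), where Gzmk was the second gene. The aCD3 calls by housing, 6 as reported (53.3% of all tested genes), became 2 without F1, M3 and M4 under either scaling (3.52% and 2.22%). These were 1 higher and 1 lower, and 0 and 2 with median of ratios. The difference of effects, 2 as reported (3.48%), gave 0 with array weights (1.31%), no low-value filter (1.13%) or no sex term (3.46%). A pseudocount of 5 (2.24%) and the replicate block (1.33%) also gave 0. So did the fits without F1, M3 and M4 under either scaling (0.0493% and 0.23%). The count was 4 with run as covariate (4.57%) and 5 with median of ratios (11.7%) or voom (15.1%). The 2 groups alone give the difference of effects no value. The replicate block (names paired across groups, although they share only a name) gave 7 SPF aCD3 calls (64% of all tested genes) and 7 aCD3 calls by housing (46.9%).

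Signs turned only where neither value passed. In GF aCD3, Klrd1 was -0.076 with no sex term, -0.012 at a pseudocount of 5 and -0.14 in the later run, where Klrc1 was -0.17. Between isotype groups, Prf1 was -0.031 with array weights, -0.15 with median of ratios (also without F1, M3 and M4), -0.14 with quantile normalization, -0.29 with the replicate block, -0.33 with run as covariate and -0.13 with voom. Klrd1 there was -0.052 with array weights, -0.12 with median of ratios (also without F1, M3 and M4), -0.010 at a pseudocount of 0.1, -0.15 with quantile normalization, -0.060 with the replicate block and -0.099 with voom. Klrk1 was -0.014 with quantile normalization, and Ctsw -0.048 with median of ratios (also without F1, M3 and M4) and -0.046 with voom. Between aCD3 groups, Nkg7 was 0.000376 with array weights, 0.32 without F1, M3 and M4, 0.13 with median of ratios besides, and 0.29 with quantile normalization. Klrd1 was 0.25 and 0.070, and Klrc1 0.52 and 0.34, without F1, M3 and M4 under the 2 scalings; Klrc1 was 0.061 with array weights. For the difference of effects without F1, M3 and M4, the 2 scalings gave -0.16 and -0.19 for Fasl, 0.24 and 0.19 for Klrd1 and 0.28 and 0.24 for Klrc1. With 1 library left out, 4 near-zero values crossed 0: Klrd1 in GF aCD3 (-0.13 to 0.17) and between isotype groups (-0.13 to 0.15), and Prf1 between isotype groups (-0.060 to 0.080) and in SPF aCD3 (-0.028 to 0.11). Of 2110 member values under alternatives, 1825 kept direction and side of the threshold. Depth limits Klrk1 most in a single library, at 15 reads against 29 in the lowest library of Klrd1. By the median over libraries it limits Klrd1 most, at 118 reads against 185 for Klrk1.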
